A study of Mus musculus with 40 samples.

Results

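The ERV1 families are the gammaretrovirus-like (class I) endogenous retroviruses of the mouse genome. Members were taken from the repeat annotation by name: every family that the deposited gene and transposable element (TE) table lists with subclass ERV1 and class LTR, and every genomic copy of those families in the deposited table of single TE copies. This gave 121 of the 1243 TE families counted, of which 24 are internal parts that carry viral genes and 97 are long terminal repeats (LTRs), and 68803 of 3799629 TE copies. The rule itself uses no measured value, but it was chosen with earlier results of these data known. Of the 121 families 111 passed the filter on low counts, and 10 did not. Of the 68803 copies 1837, from 104 families, passed it, and 40031 copies had no read that aligned to them alone in any library. RLTR4_MM-int, the internal part that lies between RLTR4_Mm LTRs, is listed in the table with LTR in place of a subclass, so it is not a member, and its reads are given only where they lie inside a provirus of members.

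Total RNA was sequenced from mouse embryonic stem (mES) cells kept naive in 2i and LIF and from epiblast-like cells (EpiLC) obtained with FGF and Activin A, all harvested at 48 h. Each stage held 8 wild-type (WT) libraries and 4 each of LBRKO, in which Lbr was disrupted by CRISPR–Cas9, TKO, in which Lmna, Lmnb1 and Lmnb2 are deleted, and QKO, in which Lbr was disrupted on the TKO background, for 40 libraries in 8 groups. QKO is a single clone, and which clone each LBRKO library came from is not given in the labels. Each library came from its own well of cells, so the error given here is the spread between wells and not between independent lines. According to the methods of the study, every TKO population found had an extra chromosome 8, and part of the cells also lacked the Y. Most cells of the littermate WT line were normal. The rest lacked the Y, and some of those had extra chromosomes 6 and 8. Tested genes on chromosome 6 had median log2 fold changes of 0.32 in LBRKO, -0.22 in TKO and -0.24 in QKO mES cells. In EpiLC these were 0.37, -0.12 and -0.11. For chromosome 8 the medians were 0.03, -0.05 and -0.03 in mES cells and 0.07, 0.02 and 0.02 in EpiLC, in the same order. The part of chromosome number in the results was not tested.

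The libraries held 27.8 to 57.7 M counts (M, megareads). WT libraries 5 to 8 (46.7 to 57.7 M) were as deep as the LBRKO libraries (47.5 to 57.6 M), while WT libraries 1 to 4 (30.2 to 40.02 M) were as deep as the TKO and QKO libraries (27.8 to 41.5 M). The labels name no batch, and several ERV1 families differed between these sets of WT libraries, so values within each set are given beside the results they touch. Lmnb1 (437 CPM in WT mES cells) was at 6.99 CPM in TKO and 11.2 in QKO mES cells. Lbr RNA was 329 CPM in WT and 178 CPM in LBRKO mES cells and did not change by more than 2-fold in any mutant. Of the 4 targeted genes 3 passed the test and 2-fold limit as lower in TKO and in QKO mES cells, but only 2 in TKO and in QKO EpiLC. In EpiLC 1 of the 4 was higher in QKO than in TKO. The summed naive markers lay between 2689 and 3959 CPM in mES cells and between 62.5 and 257 CPM in EpiLC, and fibroblast markers summed to at most 20.0 CPM in any library. In WT mES library 7, WT EpiLC library 7 and LBRKO EpiLC library 3 TE counts took a larger share of the library than in the rest of their groups. In bulk RNA, fewer transcribing cells and less RNA per cell cannot be told apart.

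A gammaretrovirus integrates as a provirus, an internal region flanked by an LTR at each end. Both LTRs are copied from the same template, so they are identical at integration and drift apart afterwards. The 5′ LTR acts as promoter, and the primer binding site just inside it pairs with the 3′ end of a host tRNA to prime reverse transcription. In mouse pluripotent cells such proviruses are silenced by KRAB zinc finger proteins that recruit TRIM28 and the H3K9 methyltransferase SETDB1; ZFP809, for example, recognises the primer binding site for proline tRNA. Lamins and the lamin B receptor LBR tether heterochromatin to the inner nuclear membrane.

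The sequences at the junction of LTR and internal region are shown for the proviruses on which the results turn, to let the LTR ends and primer binding sites be compared. They were read from GRCm39 on the strand of the provirus. Each gives the last 40 bases of the 5′ LTR and 2 spacer bases in lower case, then the 18 bases of the primer binding site in capitals.
MMERGLN provirus, chr8:122559974-122560033, plus strand: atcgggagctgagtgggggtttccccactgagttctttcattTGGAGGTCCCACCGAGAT
RLTR4_Mm provirus, chr5:23913691-23913750, minus strand: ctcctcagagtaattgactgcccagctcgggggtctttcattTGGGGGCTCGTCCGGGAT
LTRIS2 provirus, chr15:22704906-22704965, minus strand: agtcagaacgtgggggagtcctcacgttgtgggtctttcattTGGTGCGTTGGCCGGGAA
second LTRIS2 provirus of the same chromosome, chr15:39110355-39110414, minus strand: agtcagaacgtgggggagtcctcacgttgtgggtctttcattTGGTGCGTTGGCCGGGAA
LTRIS2 provirus, chr10:74555608-74555667, minus strand: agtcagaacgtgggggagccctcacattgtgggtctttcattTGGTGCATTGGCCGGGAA
The primer binding sites of the chr8 and chr5 proviruses differed at 6 of 18 bases, and that of the chr8 provirus differed at 9 of 18 from each LTRIS2 provirus. The chr5 sequence is of the proline type used by murine leukaemia viruses. Between the chr15 LTRIS2 proviruses the site was the same, and the chr10 provirus differed from them at 1 base.

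ERV1 families together were a small part of the RNA and were largest in QKO cells. They took 0.103% ± 0.0165 (SD, n = 8) of all counts in WT mES cells, 0.117% ± 0.00907 (n = 4) in LBRKO, 0.151% ± 0.00760 (n = 4) in TKO and 0.246% ± 0.0133 (n = 4) in QKO. In EpiLC the shares were 0.0824% ± 0.0110 (n = 8), 0.0896% ± 0.0265, 0.115% ± 0.00242 and 0.195% ± 0.00794 (n = 4 each). The rise in QKO was not particular to ERV1, since all TE families together went from 7.595% of counts in WT to 12.6% in QKO mES cells, and from 8.51% to 13.9% in EpiLC. Of the 111 tested families, 59 had their highest mean in QKO EpiLC and 48 in QKO mES cells.

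A single provirus carried the largest change of any ERV1 family, and it separated both lamin-deleted lines from WT and LBRKO. MMERGLN-int is the internal part of a murine gammaretrovirus family whose name records a glutamine tRNA primer. At the family level it stood at 2.32 CPM (counts per M counts, with TMM-scaled library totals) in the lowest, 3.48 in the median and 5.83 in the highest WT mES library. The LBRKO mES libraries held 2.87, 2.07, 3.06 and 3.59 CPM. TKO mES libraries held 86.4, 80.8, 87.0 and 86.4 CPM, and QKO mES libraries 97.5, 104, 102 and 103 CPM. Neither lamin-deleted line overlapped WT or LBRKO. The log2 fold change against WT was 4.48 ± 0.21 (SE) for TKO (edgeR quasi-likelihood test, Benjamini-Hochberg adjusted p = 6.04e-20) and 4.73 ± 0.21 for QKO (adjusted p = 2.66e-21).

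In EpiLC MMERGLN-int was higher still in the same lines. WT EpiLC libraries ranged from 2.01 through a median of 3.65 to 5.32 CPM and LBRKO held 2.28, 1.65, 4.36 and 3.29 CPM. TKO libraries held 226, 163, 162 and 160 CPM and QKO libraries 196, 162, 167 and 194 CPM, again with no overlap with WT. The log2 fold changes were 5.64 ± 0.21 in TKO and 5.66 ± 0.21 in QKO, with edgeR adjusted p of 1.12e-22 and 1.76e-23. QKO did not pass the test against TKO in either stage (log2 fold change 0.25 ± 0.22 in mES cells and 0.02 ± 0.22 in EpiLC), although all 4 QKO mES libraries lay above the TKO ones. Its LTR, MMERGLN_LTR, rose with it, by a log2 fold change of 2.63 ± 0.18 in TKO and 2.87 ± 0.18 in QKO mES cells, and 3.52 ± 0.18 and 3.80 ± 0.18 in EpiLC. The change between WT and TKO was larger in EpiLC than in mES cells for MMERGLN-int (interaction 1.16 ± 0.30 on the log2 scale, edgeR adjusted p = 0.00803). With WT 5 to 8 alone it was 0.89 and with single-alignment reads 0.91, both under 2-fold.

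**Figure D1:**
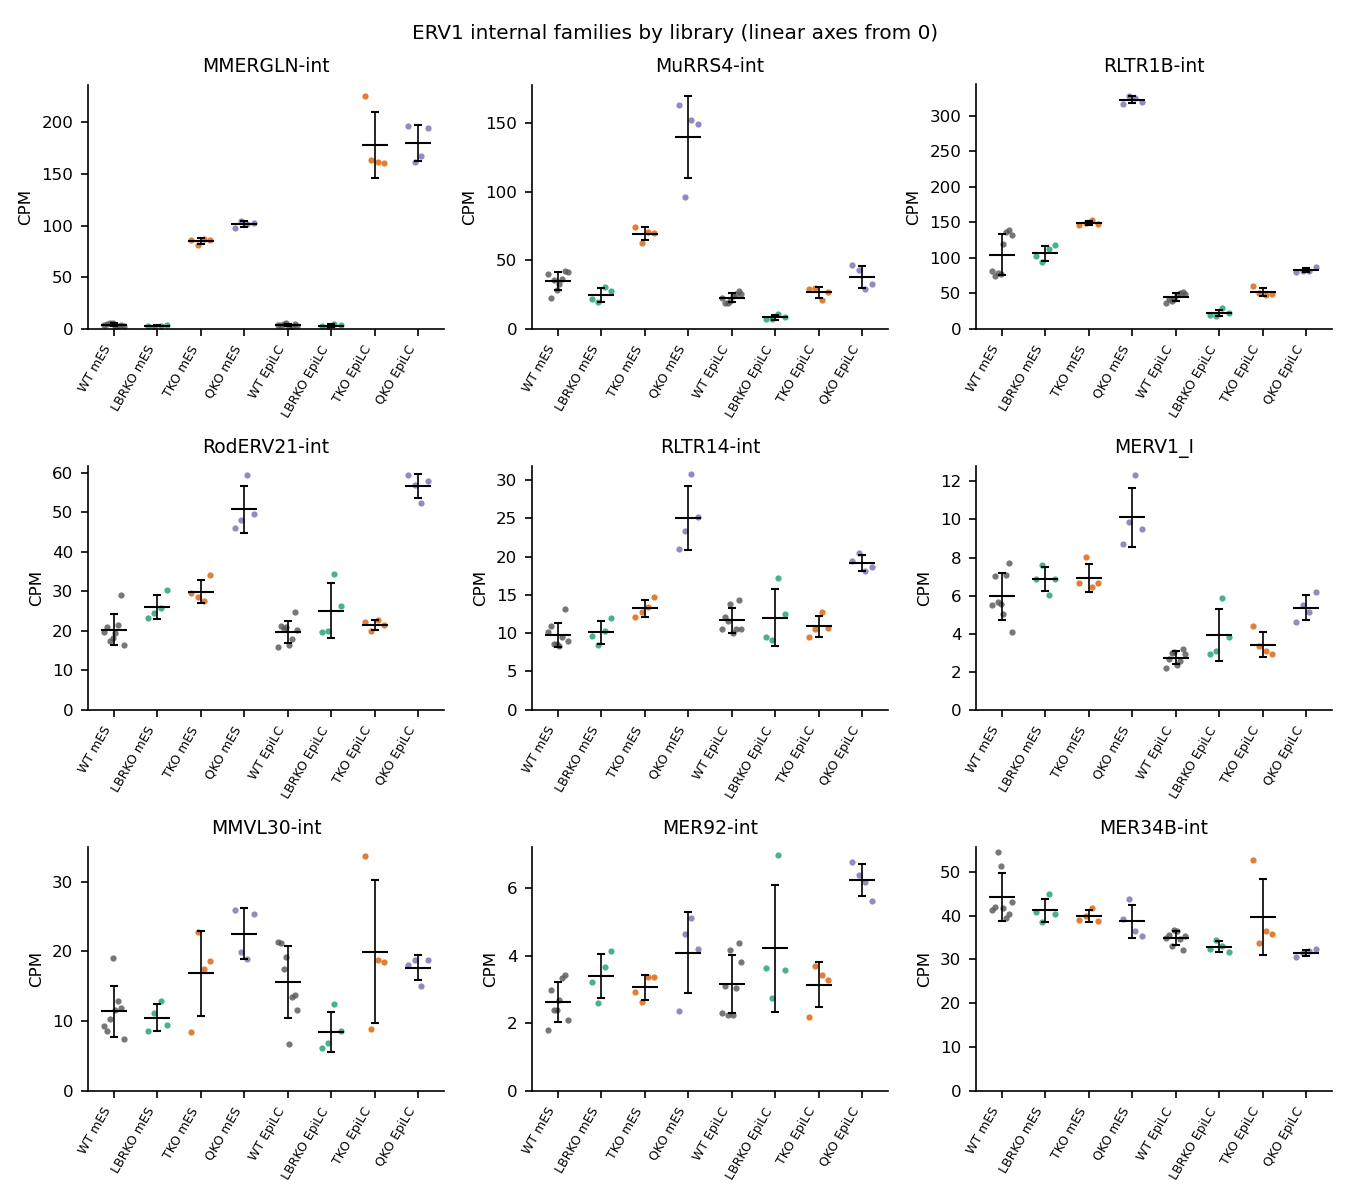
Each panel shows 1 internal ERV1 family, with CPM on the vertical axis and the 8 groups on the horizontal axis; dots are libraries, bars the mean and whiskers the SD. MMERGLN-int is at most 5.83 CPM in WT and LBRKO and at least 80.8 CPM in every TKO and QKO library, while RLTR1B-int and MuRRS4-int stand highest in QKO mES cells and lowest in LBRKO EpiLC.

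Reads that align to a single place put most of the MMERGLN-int signal at 1 locus. The provirus, chr8:122559584-122568003 on the plus strand, is 8420 bp long, and its flanking MMERGLN_LTR copies were identical over 430 bp. The annotated lncRNA gene Gm42047 (chr8:122559877-122567924, plus strand) lies inside it, and copies that overlap its exons count as exonic. Its ERV1 copies, scaled to CPM by the totals of the gene table, summed in mES cells to 46.5, 49.8, 45.6 and 46.1 CPM in TKO and to 51.9, 59.8, 55.1 and 50.3 in QKO. The 8 WT mES libraries held 2 reads there in all and the 4 LBRKO mES libraries 2 reads, against 5615 reads in TKO. In EpiLC TKO held 83.1, 91.7, 106 and 95.8 CPM and QKO 88.0, 92.8, 96.9 and 102 CPM, while WT and LBRKO held 1 read each. MMERGLN-int_dup185, the copy with the most reads, passed the edgeR test in each lamin-deleted group (adjusted p = 2.43e-50 in TKO and 3.06e-51 in QKO mES cells). No fold change is given because the WT counts are so few. The RLTR4_MM-int part of the same provirus averaged 520 CPM in TKO mES cells, 544 in QKO mES cells, 962 in TKO EpiLC and 953 in QKO EpiLC.

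This locus held 79.5% of the single-alignment reads of MMERGLN-int in TKO mES cells, 76.5% in QKO mES cells, 89.8% in TKO EpiLC and 84.5% in QKO EpiLC. Reads of MMERGLN-int copies elsewhere summed to 6.52 CPM in WT, 6.88 in LBRKO, 8.64 in TKO and 11.7 in QKO mES cells. In EpiLC the copies elsewhere summed to 6.29, 6.09, 7.86 and 11.7 CPM in the same order. For MMERGLN-int the change outside the locus was thus far smaller. With copies that overlap exons left out, the family's log2 fold change fell to 0.96 in TKO and 1.77 in QKO mES cells, and to 0.74 and 1.47 in EpiLC, of which those of TKO kept an adjusted p under 0.05 (0.000423 in mES cells and 0.00997 in EpiLC) but not the 2-fold limit. The interaction of stage and TKO then turned to -0.22. Of the single-alignment reads of MMERGLN_LTR the locus held 42.2% in TKO and 39.8% in QKO mES cells, and 63.6% and 45.1% in EpiLC. MMERGLN_LTR copies elsewhere summed to 12.9 CPM in WT, 15.5 in LBRKO, 18.4 in TKO and 24.3 in QKO mES cells. In EpiLC these LTR copies summed to 11.1, 14.7, 14.3 and 37.8 CPM in the same order, so much of the LTR change in QKO lay outside this locus. Whether the provirus is present in the genome of the WT line was not tested, since only RNA was measured.

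Klhdc4, the gene next to the provirus (chr8:122521817-122556447, minus strand), was higher in the same libraries, at 26.4 CPM in WT, 60.5 in TKO and 71.0 in QKO for mES cells, and at 35.6, 102 and 106 CPM for EpiLC. The log2 fold changes were 1.195 and 1.43 in mES cells and 1.52 and 1.57 in EpiLC, and each passed the test. On the other side Gm26812 (chr8:122576896-122606263, plus strand) held 0.676 CPM in WT, 0.937 in TKO and 1.196 in QKO for mES cells, differences under 2-fold (0.46 and 0.82), and it rose in QKO EpiLC (1.01 ± 0.20, edgeR adjusted p = 3.78e-05) but not in TKO EpiLC (-0.05). Slc7a5, an amino acid transporter gene beyond Gm26812, was at 714 CPM in WT and 629 and 467 CPM in TKO and QKO mES cells, and it fell past 2-fold in QKO EpiLC (log2 fold change -1.03).

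**Figure D2:**
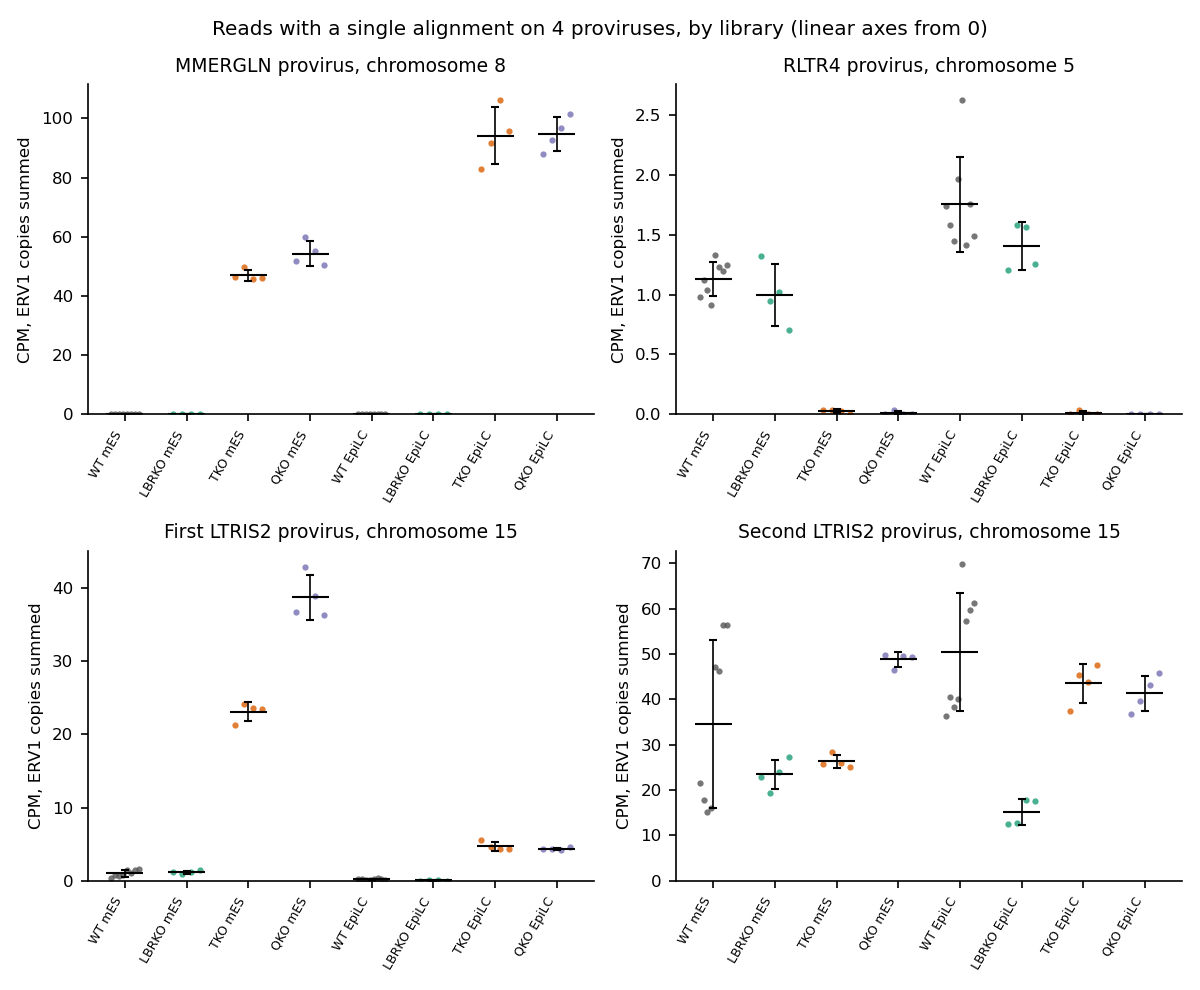
The summed CPM of the ERV1 copies of 4 proviruses (vertical axes, linear from 0; CPM by gene table totals) is plotted for each library of the 8 groups; dots are libraries, bars the mean and whiskers the SD. The chr8 provirus is high in TKO and QKO, against at most 2 reads in any WT or LBRKO group, and the chr5 provirus mainly in WT and LBRKO, while the first chr15 provirus is high in TKO and QKO mES cells and the second is expressed in every group.

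The chr5 provirus showed the opposite pattern. It spans chr5:23905577-23914243 on the minus strand, is 8667 bp long with RLTR4_Mm LTRs identical over 533 bp, and lies in the lncRNA gene AI506816. Its LTRs are the member copies. They summed to 0.916 CPM in the lowest, 1.16 in the median and 1.33 in the highest WT mES library, and LBRKO held 1.32, 0.943, 1.02 and 0.701 CPM. In TKO mES cells 3 reads were found in 4 libraries and in QKO 1 read. In EpiLC WT ranged from 1.42 to 2.62 CPM (median 1.66) and LBRKO held 1.204, 1.58, 1.57 and 1.26 CPM, while TKO held 1 read and QKO 0 reads. A count of 0 allows up to 3 reads, counting error only. The RLTR4_MM-int part held 32.2 CPM in WT and 21.7 CPM in LBRKO mES cells, 42.2 and 36.3 CPM in EpiLC, and at most 2 reads in any group of TKO or QKO. The copy RLTR4_Mm_dup65 passed the edgeR test as lower in every lamin-deleted group (adjusted p = 1.16e-09 in TKO and 9.79e-10 in QKO mES cells). The host lncRNA gene AI506816, whose exons include the provirus, held 31.9 CPM in WT, 19.4 in TKO and 24.7 in QKO mES cells and passed the 2-fold limit in neither line; reads of its exons and of the provirus cannot be told apart where they overlap.

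Other proviruses, chosen after their values were seen, also had next to no reads in both lamin-deleted lines. QKO was derived from TKO, so these are not independent lines. Whether these proviruses and the chr5 provirus are present in the genome of the TKO line was not tested. A provirus with RLTR6B_Mm LTRs (chr12:24130508-24135643, minus strand; LTRs 99.7% identical) averaged 0.641 CPM in WT and 0.872 in LBRKO mES cells, 0 in TKO and 0.0257 in QKO. A MERV1_LTR pair with older LTRs (chr8:86310196-86316496, minus strand; 93.9% identical) averaged 0.510 and 0.403 CPM in WT and LBRKO mES cells and 0.00913 and 0.0270 in TKO and QKO. The family RLTR4_Mm as a whole was 0.70 ± 0.08 lower on the log2 scale in TKO mES cells, and stood at 12.0 to 14.3 CPM against 19.2 to 22.9 CPM in WT. That change was under 2-fold, and QKO, at 20.9 to 25.3 CPM, overlapped WT.

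The LTRIS2 proviruses were the largest set of expressed ERV1 proviruses. Nearly all of those with a tested copy held one that was higher in QKO mES cells. A locus could pass the filter on low counts through QKO alone, so part of this followed from the filter. LTRIS2 is an LTR of MuRRS elements, and RLTR1B-int and MuRRS4-int are internal parts annotated between LTRIS2 LTRs, though over all RLTR1B-int copies the commonest LTR within 100 bp is RLTR1B. Over all 2551 MuRRS4-int copies it is MURVY-LTR (621 copies, against 107 for LTRIS2), and 2011 of them lie on the Y chromosome, so the family count of MuRRS4-int is not a measure of LTRIS2 proviruses alone. Of the reads that align to a single place, at most 5 in any group lay on Y copies of MuRRS4-int. At the family level LTRIS2 stood at 111 CPM in the lowest, 143 in the median and 210 in the highest WT mES library. LBRKO held 163, 147, 174 and 160 CPM, TKO 201, 203, 207 and 208 CPM and QKO 433, 420, 413 and 422 CPM. Every QKO library lay above every other library. The log2 fold change against WT was 1.505 ± 0.12 (edgeR adjusted p = 1.52e-13) and that of QKO against TKO 1.04 ± 0.14 (adjusted p = 5.95e-07).

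RLTR1B-int followed the same order in mES cells, from 73.8 through a median of 100.2 to 139 CPM in WT. LBRKO held 102, 93.3, 112 and 117 CPM, TKO 145, 149, 153 and 147 CPM and QKO 316, 328, 324 and 319 CPM. No QKO library overlapped another group (log2 fold change 1.62 ± 0.13 against WT, edgeR adjusted p = 2.19e-13, and 1.12 ± 0.16 against TKO, adjusted p = 9.62e-07). MuRRS4-int ranged from 22.2 through a median of 35.9 to 42.0 CPM in WT mES cells. TKO held 74.2, 62.4, 70.7 and 70.1 CPM and QKO 163, 96.2, 152 and 149 CPM. QKO was higher than WT by 2.01 ± 0.14 (edgeR adjusted p = 7.3e-15) and higher than TKO by 1.01 ± 0.17 (adjusted p = 2.39e-05), and QKO library 2 lay well below the other three QKO libraries while staying above TKO. The TKO change of 1.00 ± 0.15 fell just short of the 2-fold limit.

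WT libraries 1 to 4 and 5 to 8 stood apart in these families. LTRIS2 was 113 ± 2.32 CPM (SD, n = 4; 111 to 116) in WT mES libraries 1 to 4 and 184 ± 18.4 CPM (169 to 210) in libraries 5 to 8, and RLTR1B-int was 77.7 ± 3.34 and 131 ± 8.84 CPM. Neither pair of ranges overlapped. Against WT 1 to 4 alone the QKO log2 fold change was 1.93 for LTRIS2 and 2.08 for RLTR1B-int, and against WT 5 to 8 alone 1.19 and 1.29, so QKO passed the test either way. TKO lay 0.87 and 0.95 above WT 1 to 4, but only 0.14 and 0.17 above WT 5 to 8, and passed the 2-fold limit in neither. LBRKO lay 0.52 above WT 1 to 4 and 0.19 below WT 5 to 8 for LTRIS2. The part of depth or of the WT set in these differences was not tested.

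In EpiLC this group was lower overall and lowest in LBRKO. RLTR1B-int ranged from 36.1 through a median of 44.5 to 52.1 CPM in WT EpiLC and LBRKO held 19.5, 18.4, 28.8 and 21.9 CPM, below every WT library. TKO held 59.8, 50.6, 47.0 and 48.5 CPM and QKO 79.8, 81.4, 81.1 and 86.5 CPM. The LBRKO log2 fold change was -1.01 ± 0.14 (edgeR adjusted p = 8.65e-07). It was -0.82 against WT 1 to 4, where it missed the 2-fold limit, and -1.13 against WT 5 to 8. The limit was missed in 9 of 22 alternatives, with values from -1.16 to -0.73 over all of them. Besides WT 1 to 4 alone, these were scaling factors from genes only and the replicate block. The rest left out WT EpiLC library 5, 6, 7 or 8 or LBRKO EpiLC library 1 or 2. The LBRKO change differed between the stages by -1.03 ± 0.19 (edgeR adjusted p = 0.000146), and by -0.82, short of 2-fold, with WT 5 to 8 alone. That difference fell short of the limit in 10 of 34 alternatives. Some of the others left out 1 of WT mES libraries 1 to 4 or LBRKO mES library 3 or 4. The rest left out WT EpiLC library 7 or LBRKO EpiLC library 1 or 2.

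MuRRS4-int also fell in LBRKO EpiLC, from 18.8 through 23.0 to 27.2 CPM in WT to 7.03, 7.18, 10.9 and 8.64 CPM. The log2 fold change was -1.43 ± 0.17 (edgeR adjusted p = 9.81e-09), with no overlap, and it was past 2-fold against either WT set alone (-1.24 and -1.55). Outside exons it was -0.27 (adjusted p = 0.51). In QKO EpiLC MuRRS4-int held 46.4, 42.9, 29.2 and 32.6 CPM, which was above WT but under 2-fold (0.73 ± 0.15). The QKO change was smaller in EpiLC than in mES cells by 1.28 on the log2 scale (interaction -1.28 ± 0.21, edgeR adjusted p = 7.79e-06). Outside exons this difference was -0.41 and the call was lost (adjusted p = 0.436).

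Counted by provirus, 1260 loci held a pair of ERV1 LTRs of the same family and strand around an internal region, and 55 of them had a copy that passed the filter on low counts. LTRIS2 gave 62 of these loci and 23 of the 55. The filter can be met by the libraries of 1 group alone. A locus with few or no reads in WT thus entered through the groups where it was high, and its rise followed from the filter. LTRIS2_dup1200, for example, averaged 0.00317 CPM in WT mES cells and 7.05 CPM in QKO mES cells. In QKO mES cells 22 of the 23 LTRIS2 proviruses held a copy that rose against WT and none held a copy that fell. Of all TE copies tested, 24.1% rose and 1.33% fell. Of the 32 other proviruses with a tested copy 13 held one that rose and 6 one that fell. LTRIS2 proviruses had a median of 4 tested copies each and the others 2, and a locus with more tested copies can more readily hold a called one. The shares given here are of copies and the counts are of loci, so the 2 are not on the same footing. Against TKO 13 LTRIS2 proviruses held a copy that rose, and 1 of the others, where 1.24% of all TE copies rose. For TKO against WT mES cells the number was 9 in each set, where 3.44% of all TE copies rose. There 4 of the others held a copy that fell (0.674% of all TE copies). In LBRKO mES cells 6 LTRIS2 proviruses and none of the others held a copy that fell, where 0.445% of all TE copies did. Among the others 1 held a copy that rose (0.396% of all TE copies). In EpiLC 16 of 23 held a copy that rose in QKO and 1 a copy that fell, beside 16 and 4 of the 32 others. Of all TE copies, 29.6% rose there and 1.35% fell. In LBRKO EpiLC 7 of 23 and none of the others held a copy that fell, where 0.279% of all TE copies did. Among the others 1 held a copy that rose (1.18% of all TE copies). The CPM of the LTRIS2 proviruses summed to 110 in WT, 122 in LBRKO, 148 in TKO and 288 in QKO mES cells, and to 70.0, 24.9, 74.4 and 84.1 in EpiLC. Most of the WT and LBRKO EpiLC sums came from the second chr15 provirus. On its own it averaged 50.4 CPM in WT, 15.2 in LBRKO, 43.6 in TKO and 41.3 in QKO EpiLC. The mean was higher in LBRKO than in WT EpiLC at 2 of the 23 loci.

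**Figure D3:**
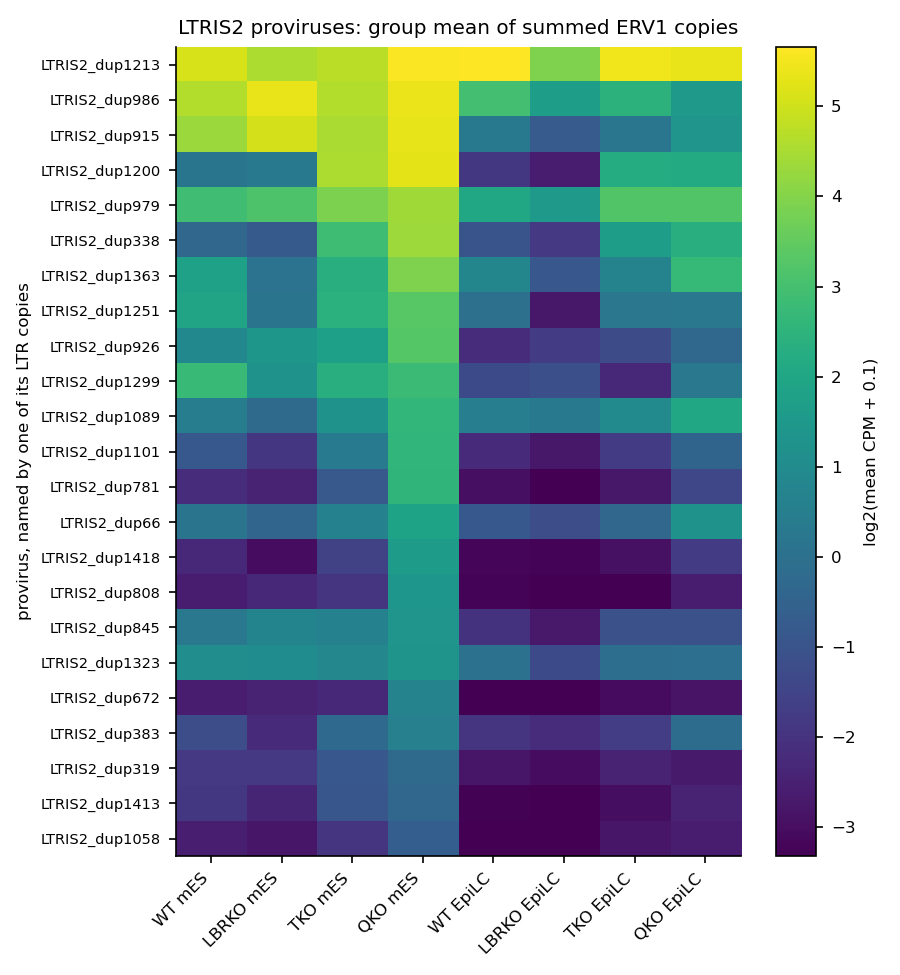
The heat map gives log2(mean CPM + 0.1) of the ERV1 copies of the 23 LTRIS2 proviruses that had a tested copy (rows, ordered by the QKO mES mean) in the 8 groups (columns). The QKO mES column is the brightest for most rows, and a few rows are also bright in WT. A row could pass the filter on low counts through QKO mES cells alone.

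The proviruses did not behave alike. The first chr15 provirus (chr15:22699737-22705468, minus strand, 5732 bp) lies in an intron of Cdh18 on the opposite strand, and its LTRs differ at 1 of 543 bases. It ranged from 0.362 through 0.951 to 1.54 CPM in WT mES cells, and LBRKO held 1.21, 0.851, 1.15 and 1.40 CPM. TKO held 21.3, 24.2, 23.5 and 23.4 CPM and QKO 36.7, 42.9, 38.9 and 36.3 CPM. WT and LBRKO overlapped, TKO lay far above both, and QKO lay above TKO. In EpiLC TKO held 5.56, 4.58, 4.28 and 4.27 CPM and QKO 4.32, 4.38, 4.22 and 4.54 CPM against at most 0.337 CPM in WT, so there TKO and QKO overlapped. The mean level of Cdh18 itself was at most 0.117 CPM in any group.

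The second chr15 provirus (from chr15:39105241, minus strand, within the lncRNA gene Gm62213 and the gene Rims2, LTRs identical) was expressed in all genotypes. WT mES libraries 1 to 4 held 21.5, 17.8, 15.2 and 16.1 CPM and libraries 5 to 8 held 47.2, 46.1, 56.3 and 56.3 CPM. QKO mES libraries, at 49.8, 46.4, 49.6 and 49.4 CPM, lay above the first set and within the second, and TKO held 25.7, 28.4, 26.0 and 25.1 CPM. In EpiLC LBRKO held 12.5, 12.7, 17.8 and 17.6 CPM, below all 8 WT libraries (36.4 to 69.8 CPM). Its copy RLTR1B-int_dup834 was lower in LBRKO EpiLC by 1.79 on the log2 scale (fold change -1.79 ± 0.22, edgeR adjusted p = 5e-09). Over all libraries this copy held 12.9% of the single-alignment reads of RLTR1B-int. MuRRS4-int_dup2470, in the same provirus, held 33.0% of those of MuRRS4-int.

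The chr10 provirus (from chr10:74550529, minus strand, LTRs identical) was higher in LBRKO mES cells, at 31.3, 28.1, 35.6 and 40.7 CPM, than in WT 1 to 4 (13.1 to 15.4 CPM), and overlapped WT 5 to 8 (22.8 to 29.3 CPM) by 1 library. QKO held 37.8, 39.6, 41.6 and 42.3 CPM. A provirus on chr4 (chr4:66820293-66825922, plus strand, LTRs 99.6% identical) rose stepwise, from 0.530 to 0.850 CPM in WT and 0.403 to 0.552 CPM in LBRKO to 6.41 to 8.04 CPM in TKO and 18.2 to 22.4 CPM in QKO. A provirus on the X chromosome (chrX:63976723-63982286, plus strand) held at most 0.178 CPM in WT, 0.231 to 0.678 CPM in TKO and 5.33, 7.09, 5.73 and 4.84 CPM in QKO. Among single copies LTRIS2_dup569 had no read in 16 WT libraries and held 7.73, 6.93, 7.03 and 6.14 CPM in QKO mES cells against 0.0589 to 0.292 CPM in TKO (log2 fold change of QKO against TKO 5.74 ± 0.47, edgeR adjusted p = 1.44e-14). These chr10, chr4 and X proviruses were chosen after their values were seen.

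LTR pairs at loci with a tested copy were more alike than those of all loci. The median identity was 98.9% over the 55 and 94.2% over the 1260, and 26 of 55 (47.3%) against 343 of 1260 (27.2%) were at least 99% identical. For LTRIS2 the medians were 99.6% over 23 and 96.7% over 62. Loci with identical LTRs were 9 of the 55 and 120 of the 1260. Reads that align to more than 1 place are not in the counts of single copies. Of 237 RLTR5_Mm loci, with a median LTR identity of 90.7%, none had a tested copy, and of 231 RLTR6B_Mm loci, with a median of 99.1%, 1 had one.

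**Figure D4:**
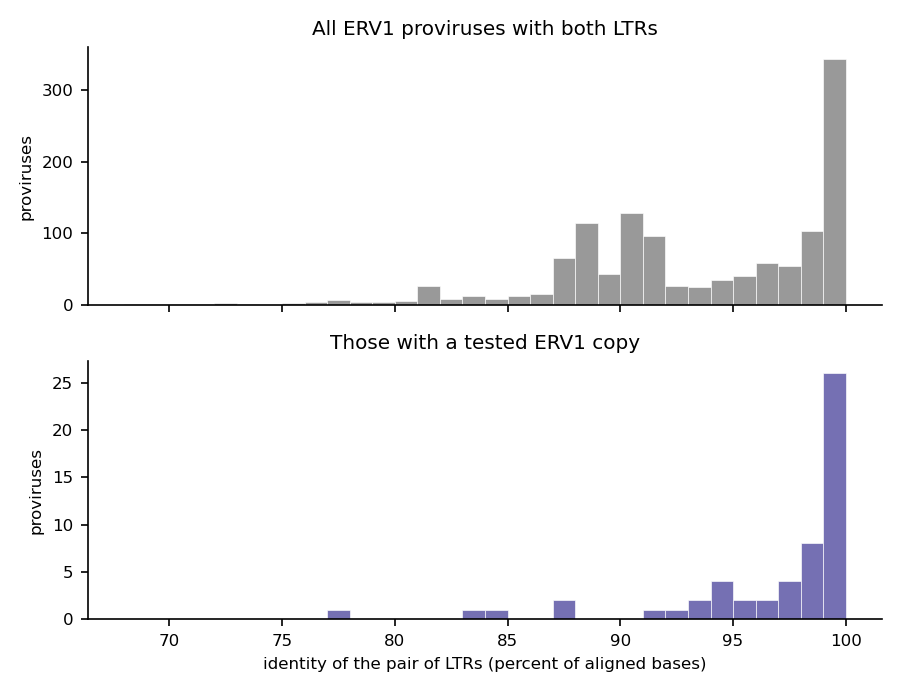
The histogram counts loci with 2 ERV1 LTRs by the identity of the LTRs in percent (horizontal axis, bins of 1), for all 1260 loci and for the 55 with a tested copy. Loci with a tested copy lie mostly in the last bins, 26 of them at 99% or more.

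Of the remaining internal families that reached 5 CPM in some group, RodERV21-int and RLTR14-int rose past 2-fold in QKO mES cells. RodERV21-int, whose copies are flanked by RMER21B, ranged from 16.3 through 19.6 to 29.1 CPM in WT mES cells and QKO held 46.0, 48.0, 59.5 and 49.6 CPM. In EpiLC it ranged from 16.0 through 20.3 to 24.7 CPM in WT, TKO held 22.2, 19.9, 22.8 and 21.4 CPM and QKO 59.4, 56.9, 52.3 and 57.9 CPM. In both stages QKO lay above all WT and TKO libraries, by a log2 fold change against WT of 1.32 ± 0.12 and 1.52 ± 0.12. RLTR14-int rose in QKO mES cells (1.36 ± 0.13, edgeR adjusted p = 1.89e-11), from a WT range of 8.28 to 13.1 CPM to 20.99, 23.4, 30.8 and 25.2 CPM. In QKO EpiLC its difference of 0.71 ± 0.13 was under 2-fold. MERV1_I and MER92-int did not pass the test and 2-fold limit in QKO at either stage. Their mES means were 5.96 and 2.63 CPM in WT and 10.1 and 4.09 CPM in QKO. In EpiLC the means were 2.74 and 3.16 CPM in WT and 5.37 and 6.25 CPM in QKO.

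MER34-int, an ancient mammalian family, was far lower in WT EpiLC (0.251 ± 0.101 CPM, n = 8) than in WT mES cells (1.81 ± 0.671 CPM, n = 8). It rose in QKO mES cells (log2 fold change 1.29 ± 0.22), in QKO EpiLC (1.96 ± 0.27) and in LBRKO EpiLC (1.29 ± 0.27, edgeR adjusted p = 0.000347). The LBRKO EpiLC libraries held 0.859, 0.449, 0.764 and 0.492 CPM and did not overlap WT. Against WT 5 to 8 alone the log2 fold change was 0.99 and missed the limit. Of the 2313 single-alignment reads of MER34-int 62.4% lay on 1 copy, MER34-int_dup46. Of its 3 tested copies 3 rose in QKO mES cells, 2 in QKO EpiLC and 1 in LBRKO EpiLC. MER34-int also moved with the naive markers, which summed to 63.6 to 88.3 CPM in WT, 164 to 257 CPM in LBRKO, 62.5 to 72.6 CPM in TKO and 127 to 152 CPM in QKO EpiLC; their part in the result was not tested.

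MURVY-LTR and MURVY-int belong to a gammaretrovirus-like family amplified on the mouse Y chromosome. MURVY-LTR ranged in mES cells from 12.1 to 17.6 CPM in WT, from 20.8 to 24.8 in TKO and from 32.5 to 36.4 in QKO, with no overlap. Its log2 fold change was 0.70 ± 0.10 in TKO and 1.31 ± 0.10 in QKO mES cells, and 0.39 ± 0.10 and 1.23 ± 0.10 in EpiLC. The 14 Y-linked genes tested moved the same way, with median log2 fold changes of 0.71 in TKO and 1.71 in QKO mES cells and 0.40 and 1.61 in EpiLC. The methods of the study report loss of the Y in subpopulations of the WT and TKO lines, and the part of Y dosage in the MURVY values was not tested. Of 2161 MURVY-LTR copies 1430 lie on the Y, but at most 6 single-alignment reads of the family in any group lay there, and reads with several alignments are not in those counts.

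MMVL30-int, the internal part of the VL30 elements, did not pass the 2-fold limit against WT in any mutant (QKO mES cells 0.99 ± 0.26). Its single-copy counts do not report the element: 99.8% of them (6869240 of 6881780) fell on MMVL30-int_dup1050, a stretch of 49 bp at chr14:51044976-51045024 that lies inside exons of Rpph1, the RNA component of ribonuclease P. MER34B-int held 30.5 to 54.6 CPM in all 40 libraries and passed the 2-fold limit in no comparison.

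Across families, QKO was the only genotype in which many ERV1 families rose. In mES cells 43 of 111 families (38.7%) rose more than 2-fold in QKO against WT and none fell, where 25.1% of all 1142 TE families tested rose. In EpiLC 48 of 111 (43.2%) rose, against 26% of all TE families. The median log2 fold change of ERV1 families was 0.91 in mES cells and 0.97 in EpiLC, close to the medians of 0.82 and 0.85 over all TE families. Of the ERVK families 46.7% and 52.9% rose and of the ERVL families 16.1% and 15.2%. The LTR families that rose included MER57E2 (2.05 ± 0.31) and MER67D (1.90) in QKO mES cells, both at most 2.38 CPM in any mES library, and LTRIS3, which rose from 6.54 to 10.4 CPM in WT to 19.6 to 26.6 CPM (1.53 ± 0.13). In EpiLC RLTR1B, an LTR that flanks RLTR1B-int, rose from 15.2 to 31.9 CPM in WT to 74.1, 69.7, 63.9 and 65.4 CPM (1.79 ± 0.14, edgeR adjusted p = 1.53e-13).

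**Figure D5:**
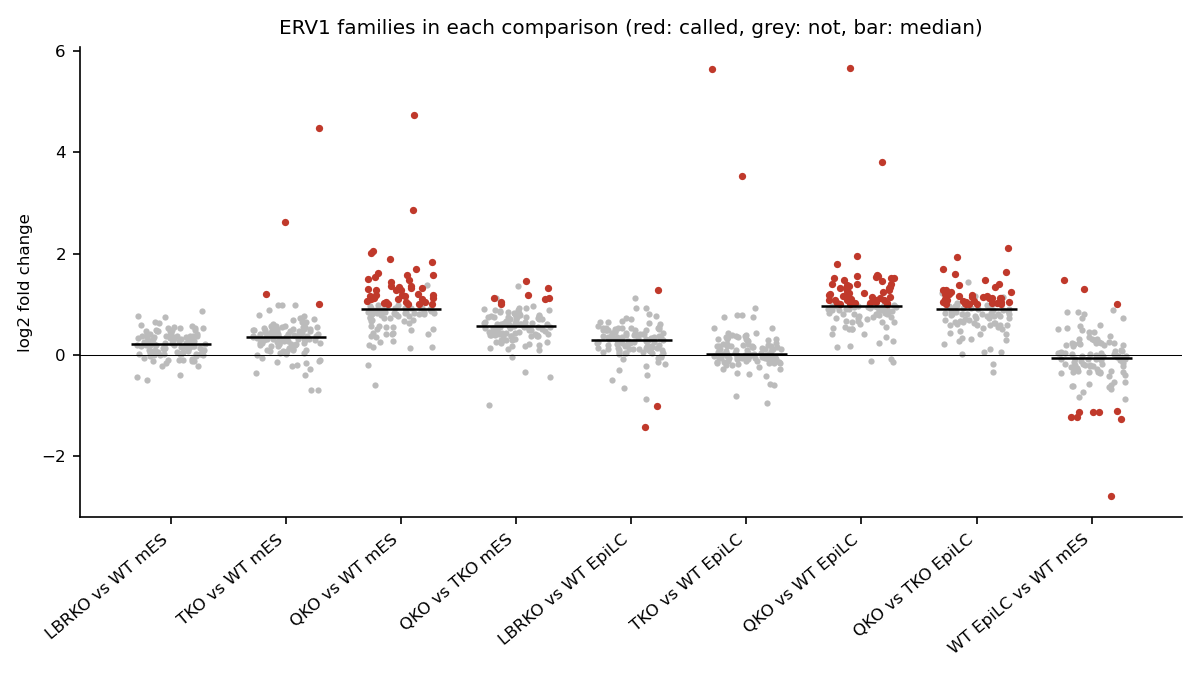
Each dot is 1 of the 111 tested ERV1 families, with its log2 fold change on the vertical axis and the comparison on the horizontal axis; red dots passed the test and the 2-fold limit, grey dots did not, and the bar is the median. The medians of both QKO comparisons with WT lie near 1, and the highest TKO and QKO points are MMERGLN-int.

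TKO alone moved few families. In mES cells 4 of 111 (3.6%) rose, against 2.1% of all TE families: MMERGLN-int, MMERGLN_LTR, MURVY-int and MER67D (1.01 on the log2 scale). In EpiLC only MMERGLN-int and MMERGLN_LTR rose (2 of 111, 1.8%, against 0.701% of all TE families). The call of MER67D, at a mean of 0.291 CPM in WT and 0.604 CPM in TKO mES cells, was lost in 11 of 22 alternatives. Its log2 fold change went down to 0.58 there. MMERGLN_LTR lost its TKO calls in sums outside exons, at 0.75 in mES cells and 0.40 in EpiLC. LBRKO moved none of 111 in mES cells by the edgeR test, also at an unadjusted p under 0.05 and a 2-fold change, against 0.525% of all TE families higher and 0.0876% lower; with DESeq2 the count was 0 as well, and without WT mES library 7 it was 2. In LBRKO EpiLC MER34-int rose (0.901%, against 0.876% of all TE families) and RLTR1B-int and MuRRS4-int fell (1.8%, against 0.263%). Small changes below the limit were mostly upward in LBRKO, in 94 of 111 families in mES cells and 97 of 111 in EpiLC, with medians of 0.21 and 0.30 beside 0.30 and 0.32 over all TE families.

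QKO differed from TKO much more widely in EpiLC than in mES cells. In mES cells 8 of 111 families (7.21%) were higher in QKO than in TKO, against 4.47% of all TE families, among them LTRIS2, RLTR1B-int, MuRRS4-int and LTRIS3. In EpiLC 41 of 111 (36.9%) were higher, against 21.8%, among them MER34-int (2.12 ± 0.35), LTRIS6 (1.69) and RLTR1B (1.596 ± 0.18). Set against the sum of the LBRKO and TKO changes on the log2 scale, QKO was higher for 5 families in mES cells, where 2.63% of all TE families were, and for 9 in EpiLC, where 4.38% were. In mES cells these were MuRRS4-int (1.51 ± 0.23), MER57E2, RLTR4_Mm (1.30 ± 0.13), RLTR1B-int (1.09 ± 0.21) and RLTR5_Mm (1.09 ± 0.28). Among copies 52 were higher and 2 lower than the sum in mES cells (2.83% and 0.109%, against 0.778% and 0.136%), and 60 and 2 in EpiLC (3.27% and 0.109%, against 0.861% and 0.0867%). The EpiLC families included MuRRS4-int (1.94 ± 0.24), RLTR1B-int (1.68 ± 0.21), LTRIS2 (1.24 ± 0.19) and RodERV21-int (1.05 ± 0.19). MuRRS4-int and RLTR4_Mm, which were lower in LBRKO or in TKO, were thus higher in QKO than the single changes add up to; for RLTR1B-int in mES cells the excess was 0.67, under 2-fold, with WT 1 to 4 alone and 1.42 with WT 5 to 8 alone. The call of MER57E2 was lost in 18 of 30 alternatives (adjusted p up to 0.133), among them the omission of WT mES library 2, 4 or 7, of TKO mES library 1, 2 or 3, or of any LBRKO or QKO mES library. That of RLTR5_Mm was lost in 6 of 30, which were single-alignment sums (0.32, adjusted p = 0.273), sums outside exons and the omission of the libraries of high TE share, of WT mES library 7, of LBRKO mES library 4 or of QKO mES library 1. The EpiLC call of LTRIS2 was lost in single-alignment sums, and that of RodERV21-int without WT EpiLC library 7 or LBRKO EpiLC library 1 or 2.

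By the interaction term the change of 5 families differed between the stages, each as a difference of EpiLC from mES cells. RLTR5_Mm rose and RLTR1B-int fell for LBRKO (1 each of 111, 0.901%, against 0.438% and 0.263% of all TE families). MMERGLN-int rose for TKO (0.901%, against 0.0876%). MER57E2 and MuRRS4-int fell for QKO (1.8%, close to the 1.49% of all TE families). The call of MER57E2 was lost in 4 of 34 alternatives, with log2 values from -1.98 to -0.89 over all of them. These were WT 5 to 8 alone and the omission of QKO mES library 3 or of QKO EpiLC library 1 or 4. Among copies 14 differed upward and 9 downward for LBRKO (0.762% and 0.49%, against 0.342% and 0.0785%). For TKO 1 copy differed in each direction (0.0544%, against 0.0274% and 0.148%), and for QKO 69 upward and 21 downward (3.76% and 1.14%, against 1.4% and 0.571%).

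Between the stages of WT cells, 3 families were higher in EpiLC (2.7%, against 2.36% of all TE families) and 8 lower (7.21%, against 2.19%). The families that fell were MER34-int (-2.78 ± 0.22), RLTR1B-int (-1.23 ± 0.11), LTRIS2 (-1.12 ± 0.10), RLTR5_Mm (-1.21 ± 0.16), RLTR41 (-1.11 ± 0.09), MERV1_I (-1.12 ± 0.13), LTRIS4A (-1.26) and RLTR41C (-1.12). LTR68 (1.00), LTR109A2 (1.30) and MER92A (1.48) rose. Among the 23 LTRIS2 proviruses 19 held a copy that was lower in WT EpiLC and none a copy that was higher, beside 8 and 2 of the 32 other proviruses with a tested copy. Over all TE copies tested 9.8% were lower and 10.9% higher. The differences of RLTR5_Mm between LBRKO and WT depended on the stage, with libraries of 1.21 to 2.09 CPM in LBRKO against 1.29 to 2.61 CPM in WT mES cells and 1.13, 1.37, 1.89 and 1.25 CPM against 0.533 to 0.949 CPM in EpiLC (interaction 1.09 ± 0.27, edgeR adjusted p = 0.00309). The call was lost in 6 of 34 alternatives: in single-alignment sums (0.076, adjusted p = 0.833), in sums outside exons (0.75), without the libraries of high TE share (0.86) and without WT mES library 7, LBRKO mES library 4 or LBRKO EpiLC library 3. Single-alignment reads of RLTR5_Mm lay to 73.5% on 1 copy, RLTR5_Mm_dup18.

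Among single ERV1 copies the order of the genotypes was similar. In QKO mES cells 619 of 1837 tested copies (33.7%) rose and 34 (1.85%) fell, against 24.1% and 1.33% of all 134958 TE copies tested. In QKO EpiLC 758 (41.3%) rose and 24 (1.31%) fell, against 29.6% and 1.35%. TKO had 136 copies higher and 13 lower in mES cells (7.4% and 0.708%, against 3.44% and 0.674%), and 49 higher and 14 lower in EpiLC (2.67% and 0.762%, against 2.02% and 0.537%). LBRKO had 14 higher and 21 lower in mES cells (0.762% and 1.14%, against 0.396% and 0.445%), and 50 higher and 23 lower in EpiLC (2.72% and 1.25%, against 1.18% and 0.279%). QKO against TKO had 56 higher and 1 lower in mES cells (3.05% and 0.0544%, against 1.24% and 0.12%), and 386 higher and 6 lower in EpiLC (21% and 0.327%, against 12.6% and 0.537%). Between the WT stages 157 copies were higher in EpiLC (8.55%, against 10.9%) and 475 lower (25.9%, against 9.8%). Of the 23 copies lower in LBRKO EpiLC 12 were RLTR1B-int, 5 LTRIS2 and 4 MuRRS4-int.

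The share that rose differed by position. Of the tested ERV1 copies 543 overlap an exon, 1008 lie in introns and 286 between genes, and exonic copies hold 87.5% of all single-alignment ERV1 reads. In QKO mES cells 49.7% of the intergenic ERV1 copies rose, beside 50.1% of all intergenic TE copies. Of exonic ERV1 copies 28.5% rose beside 14.8% of all exonic TE copies, and of intronic ones 31.9% beside 24.7%. Reads of exonic and intronic copies can come from the gene they lie in.

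A few copies, named by size among those whose groups did not overlap, changed in LBRKO. RLTR1C_dup50 rose in both stages, from at most 0.431 CPM in WT mES cells to 0.980, 1.15, 0.849 and 1.03 CPM (log2 fold change 2.37 ± 0.37, edgeR adjusted p = 1.21e-05), and TKO and QKO mES libraries overlapped WT. In EpiLC it rose by 2.79 in LBRKO. MMERGLN_LTR_dup349, on chr15, held 1.55, 1.79, 1.89 and 1.40 CPM in LBRKO mES cells against 0.246 to 0.952 CPM in WT (1.36 ± 0.34, edgeR adjusted p = 0.0234). In the other direction LTRIS2_dup1252 held 0.0639, 0.0690, 0.255 and 0.225 CPM in LBRKO mES cells against 0.280 to 1.80 CPM in WT and 2.76 to 3.10 CPM in QKO (LBRKO -2.55 ± 0.41, edgeR adjusted p = 2.17e-05). RLTR14-int_dup539 fell in every mutant in mES cells, from 0.491 to 0.750 CPM in WT to 0.0849 to 0.300 CPM in LBRKO, at most 0.0357 CPM in TKO and 0 in QKO.

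Few genes that act on proviruses passed the test. Of 44 genes of proviral silencing, 2 rose and none fell in QKO mES cells (Dnmt3l and Rex2), where 8.43% of all 25366 genes tested rose and 7.36% fell. In QKO EpiLC 6 rose and none fell, where 11.9% of all genes rose and 7.92% fell: Dnmt3l, Tex19.1, Dppa3, Zfp42, Rex2 and Zfp989. The median log2 fold change of the 44 genes was -0.07 in QKO mES cells and 0.06 in QKO EpiLC. Over all tested genes with a symbol it was -0.08 and -0.02. Trim28 held 1543 CPM in WT and 1718 CPM in QKO mES cells and Setdb1 137 and 215 CPM. Dnmt3l, the cofactor of de novo DNA methyltransferases, rose in mES cells of LBRKO, TKO and QKO by 2.84, 1.28 and 2.21 on the log2 scale. Zfp809 was at 37.6 CPM in WT and 49.1 CPM in QKO mES cells, under 2-fold.

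None of 4 gammaretroviral receptor genes (Slc7a1, Xpr1, Slc20a1 and Slc20a2) passed the limit in any mutant. Of all genes tested 2.59% rose and 3.55% fell in LBRKO and 2.27% and 3.92% in TKO mES cells, and 2.98% and 2.54% in LBRKO and 1.46% and 1.34% in TKO EpiLC. Of 11 restriction factor genes tested, Fv1, a capsid-binding factor derived from a retroviral gag gene, rose on the log2 scale in TKO mES cells (2.30), QKO mES cells (2.51) and QKO EpiLC (1.36) and fell in LBRKO (-1.22 in mES cells and -1.63 in EpiLC), at mean levels of 0.166 to 2.23 CPM. Ifih1, a sensor of double-stranded RNA, fell in LBRKO, TKO and QKO mES cells (-1.59, -2.74 and -4.17), and Bst2, which holds budding virions at the cell surface, in TKO and QKO mES cells (-1.14 and -1.76). Erv3, an endogenous retroviral gene, had in mES cells a mean CPM of 0.747 ± 0.223 for WT, 0.135 ± 0.0766 for LBRKO, 1.93 ± 0.325 for TKO and 4.12 ± 0.603 for QKO (SD, n = 8 for WT and 4 for the rest), and its log2 fold changes of -2.44, 1.37 and 2.46 each passed the test.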

How the data were processed

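Total RNA libraries (ribosomal RNA depleted, stranded kit) of 40 wells in 8 groups were analysed. Per the labels and methods, the authors trimmed reads with cutadapt 2.5, aligned them to GRCm39 with STAR 2.7.10a and made the deposited counts with featureCounts 1.6.4 for single TE copies, which hold reads with a single alignment, and with TEcount for genes and TE families, which shares reads of up to 100 alignments among families. The strand setting of the counting is not given in the sources used here. Family counts and sums over copies thus come from different counting and are on different scales. Columns were matched to samples by name.

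Rows were filtered with filterByExpr, scaled by TMM and tested with edgeR 4.0.16 (quasi-likelihood, R 4.3.3), all 40 libraries in 1 fit: 26508 genes and families together, and 134958 copies with library sizes and factors from the gene table. P-values were adjusted by Benjamini-Hochberg over all rows, and a row rose or fell where adjusted p was under 0.05 and the change over 2-fold. Copy CPM use the totals of the gene table. A provirus was a pair of ERV1 LTRs of 1 family and strand, each at least 250 bp and 1 to 12 kb apart, with at least 50% internal sequence between them. Named families were internal parts reaching 5 CPM in some group and, per comparison, the largest changes with no overlap and at least 1 CPM (10 for QKO against WT, 5 elsewhere); named copies needed 0.5 CPM. Members and gene lists were chosen with earlier results of these data known. On simulated counts with 4-fold changes for QKO against WT mES cells the fit recovered 99% of 200 changed rows among 26508, and 95.5% of 200 among 134958 copies. Library totals of 27.8 to 57.7 M counts set the precision, and intervals of counts cover counting error only. Alternatives were another scaling, no filter, DESeq2 1.42.0, a minimum count of 30, each WT set alone, a replicate block, single-alignment sums and leaving out each library; sums outside exons and the omission of 3 libraries of high TE share were added after seeing the data.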

Additional observations from a re-analysis of the deposited data

Results flagged for a closer look

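Of 216 groups of libraries examined for a sample far from the rest, 17 (7.87%) held one, and chance alone marks about 1 in 20. WT mES library 7 was highest of its group by a wide gap for the ERV1 share of counts (0.142%) and for LTRIS3 (10.4 CPM), MER34C (1.51 CPM), MER57E2 (1.03 CPM), RLTR30D_RN (3.49 CPM), RLTR5_Mm (2.61 CPM) and RodERV21-int (29.1 CPM). WT EpiLC library 7 was highest for MER67D (1.11 CPM) and RLTR1B (31.9 CPM). TKO EpiLC library 1 was highest for LTRIS2 (102 CPM), MER34B-int (52.6 CPM), MMERGLN_LTR (163 CPM) and MMERGLN-int (226 CPM). TKO mES library 2 was high for MERV1_I (8.04 CPM) and low for MMERGLN-int (80.8 CPM), QKO mES library 3 was high for MER57E2 (2.38 CPM) and QKO mES library 1 was low for MER67D (0.818 CPM).

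The effect of a genotype differed between the stages for 5 families by the interaction term, as EpiLC minus mES cells on the log2 scale: RLTR1B-int (-1.03) and RLTR5_Mm (1.09) for LBRKO, MMERGLN-int (1.16) for TKO, and MER57E2 (-1.41) and MuRRS4-int (-1.28) for QKO.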

How the results depend on the processing

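Of 194 counts of ERV1 families or copies under 11 alternatives, 154 stayed within 1.5 times their main value and 40 did not; the cause was not tested except where fewer copies or libraries were used by construction. Other scaling, gene-only factors, no filter and DESeq2 moved none of them. With gene-only factors RLTR1B-int nonetheless missed the 2-fold limit in LBRKO EpiLC. Same-numbered libraries had r over 0.1 in 31 of 112 pairs (median r 0.0152). The 6 EpiLC pairs of number 1 had r from 0.196 to 0.346, but no pair of groups had r over 0.1 for every number, so the numbers were not taken to pair the samples. With the replicate block, families called became 1 for LBRKO mES (0 without) and 7 for TKO mES (4), and copies 91 for LBRKO mES (35) and 96 for QKO against TKO mES (57). With WT 1 to 4 alone, families were 2 for LBRKO mES, 8 for TKO mES, 4, 2 and 7 for the stage interactions of LBRKO, TKO and QKO (2, 1 and 2), and 15 for QKO against the sum in EpiLC (9), and copies 83 for LBRKO mES, 94 for QKO against TKO mES and 410 between WT stages (632). With WT 5 to 8 alone they were 2 for TKO mES, 1, 0 and 1 for the interactions, and 48 copies for LBRKO EpiLC (73). Without WT mES 7, WT EpiLC 7 and LBRKO EpiLC 3 they were 2 for LBRKO mES, 8 for TKO mES, 4 for the QKO interaction, and 3 and 16 against the sum in mES cells (5) and EpiLC. Single-alignment sums gave 2 for TKO mES, 4 for QKO against TKO mES (8), 28 for QKO EpiLC (48), 22 for QKO against TKO EpiLC (41), 0 for the TKO interaction and 1 against the sum in mES cells. Sums outside exons gave 1 for TKO mES, 0 for TKO EpiLC (2), 1, 2 and 1 for the interactions and 2 against the sum in mES cells. A minimum count of 30 left fewer copies, and 95 for TKO mES (149), 218 for QKO mES (653), 248 for QKO EpiLC (782), 170 for QKO against TKO EpiLC and 192 between WT stages. In single-alignment sums the log2 fold change of MER34C turned to -0.49 for QKO EpiLC and -0.033 against TKO, and RLTR5_Mm to -0.0020 for QKO EpiLC. Outside exons the TKO interaction of MMERGLN-int turned to -0.22.

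Leaving out 1 library at a time, families called ranged from 0 to 2 for LBRKO mES, 2 to 8 for TKO mES, 37 to 56 for QKO mES, 5 to 10 for QKO against TKO mES, 2 to 5 for LBRKO EpiLC, 2 to 3 for TKO EpiLC, 42 to 63 for QKO EpiLC, 33 to 42 for QKO against TKO EpiLC and 10 to 12 between WT stages. The interactions ranged from 0 to 3 for LBRKO, 1 to 2 for TKO and 1 to 4 for QKO, and the sum from 3 to 5 in mES cells and 3 (without WT EpiLC 7) to 27 (without LBRKO EpiLC 3) in EpiLC. Copies ranged from 21 to 59 for LBRKO mES, 124 to 164 for TKO mES, 535 to 751 for QKO mES, 31 to 49 for QKO against TKO mES, 51 to 81 for LBRKO EpiLC, 53 to 67 for TKO EpiLC, 684 to 833 for QKO EpiLC, 258 to 343 for QKO against TKO EpiLC and 607 to 626 between WT stages. The highest family counts for LBRKO and TKO mES came without WT mES 7. Of 68803 copies 1837 had enough single-alignment reads to be tested.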
